A study of Caenorhabditis elegans with 4 samples.

Results

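T09A5.8 is the chromodomain protein CEC-3 of the nematode *Caenorhabditis elegans*, and its binding sites on the left arm of chromosome V are described here. The arm was taken as the leftmost of 3 equal parts of the chromosome, which ends at position 6974676 of the WormBase WS220 genome. All positions given are on chromosome V of that build. A peak was counted to the arm when its midpoint lay at or before that position. By this rule 606 of the 14075 peaks of the authors' whole-series list belonged to the arm, or 4.31% of the list on 6.96% of the length of the 6 chromosomes. The same interval held 162 of 3666 peaks of ChIP replicate 1 and 180 of 3867 peaks of ChIP replicate 2.

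The data came from chromatin immunoprecipitation followed by sequencing (ChIP-seq) with an affinity-purified rabbit polyclonal antibody against T09A5.8. The group T09A5.8 ChIP has 2 samples and the group input DNA has 2 samples, and all 4 share the strain *fem-2(b245)*, hermaphrodite sex, adult stage and a culture temperature of 20 °C. The stage label names young adults with a germline, whereas the growth protocol describes gravid adults. Frozen whole animals were ground and then fixed in 1% formaldehyde for 10 min, so a peak pools all tissues and does not tell in which cells the protein was bound. No label says whether replicates came from separate cultures, and the spread between them may therefore be technical. The values used are 3 peak lists, which carry no read counts, so the depth of each library is unknown. No peak list of the input DNA was used here, and it enters no comparison.

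CEC-3 recognises histone H3 methylated at lysine 9 through its chromodomain. In *C. elegans* this mark is concentrated on the outer parts of the autosomes, which are rich in repeats and in young gene families, and is scarce in the chromosome centres, which carry many broadly expressed conserved genes. The arm examined here is an outer part by length alone, and the mark was not measured on it here. *fem-2* encodes a protein phosphatase that acts in sex determination. Which genes or repeats lie under the peaks was not analysed here, because positions of another genome build were not set against WS220 positions.

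CEC-3 peaks on the arm were sparse. The replicate lists held 23.2 peaks per Mb in replicate 1 and 25.8 peaks per Mb in replicate 2, a mean of 24.5 ± 1.82 (SD, n = 2). These peaks lay over 7.24% of the bases of the arm in replicate 1 and 7.59% in replicate 2. The whole-series list, whose peaks are shorter and more numerous, held 86.9 peaks per Mb over 6.66% of the bases. Over all chromosomes the whole-series list held 140.4 peaks per Mb on 12.8% of the bases.

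Among the 12 chromosome arms, the left arm of V ranked 10th from the densest by peaks per Mb, in each replicate and in the whole-series list. By covered bases it ranked 9th in each replicate and 10th in the whole-series list. Its neighbours in the order of peak density were the right arm of IV, with 26.0 ± 1.82 peaks per Mb (SD, n = 2), and the left arm of X, with 16.3 ± 1.44 (SD, n = 2). The left arm of V lay slightly under the right arm of IV in each replicate, with a log2 ratio of -0.088 in replicate 1 and -0.079 in replicate 2. Both replicates of the left arm of V lay above those of the left arm of X. In the whole-series list both neighbours change sides, as the left arm of V, at 86.9 peaks per Mb, stood under the left arm of X, at 88.4, and over the right arm of IV, at 80.8.

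**Figure D1:**
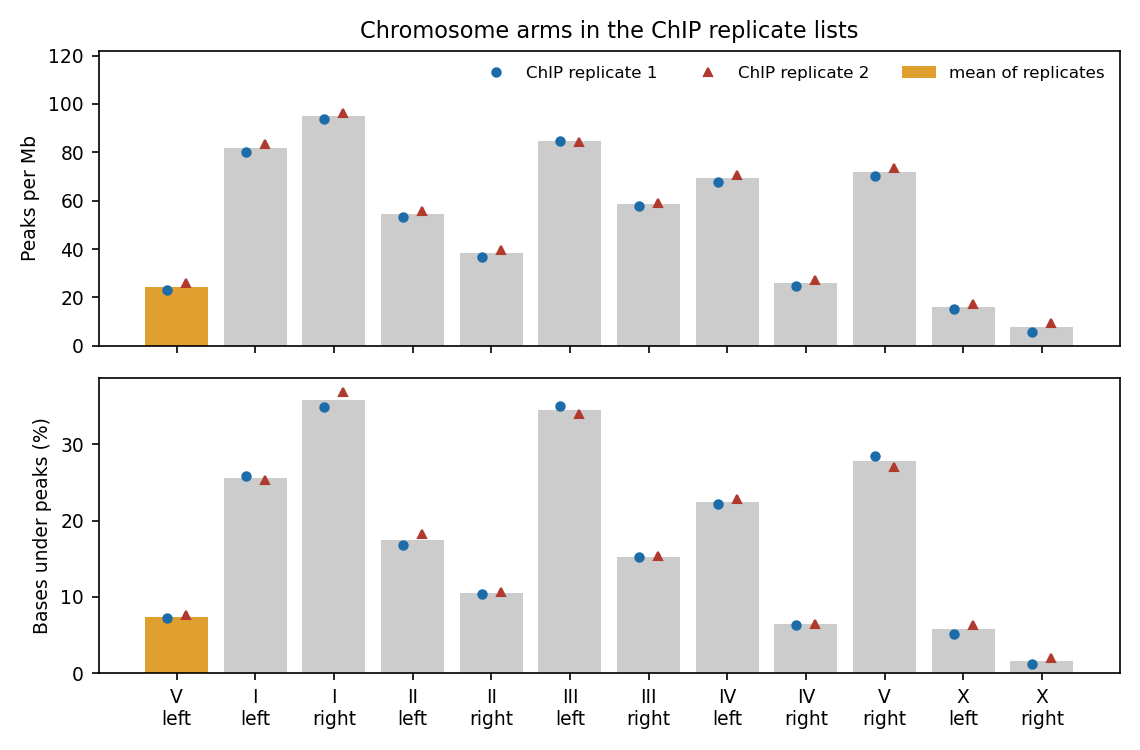
Peaks per Mb (top) and the percentage of bases under peaks (bottom) in the 12 chromosome arms, with ChIP replicate 1 as circles, ChIP replicate 2 as triangles and bars at their mean (orange for the left arm of V, grey for the others). The left arm of V holds 24.5 peaks per Mb over 7.41% of its bases, close to the right arm of IV and well under the right arm of V.

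Set against the other parts of its own chromosome, the left arm lay between the right arm and the centre. Its log2 ratio of peak density over the right arm of V was -1.60 in replicate 1 and -1.51 in replicate 2, a mean of -1.55 ± 0.0607 (SD, n = 2), which is 0.341 times the density. Over the centre of V the log2 ratio was 1.13 in replicate 1 and 1.15 in replicate 2, a mean of 1.14 ± 0.0153 (SD, n = 2), or 2.21-fold. Both replicates gave the same direction in each comparison. The ratios were many times the spread between replicates, but that spread may be technical and does not measure how secure a ratio is. For each ratio an exact permutation test (two-sided, flipping the signs of the 2 replicate values) gave p = 0.5, and it cannot go lower with 2 replicates. Over the right arm of IV the mean log2 ratio was -0.084 ± 0.0064 by peaks and 0.21 ± 0.0238 by covered bases (SD, n = 2 for each), so the order of these arms turns with the measure.

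Binding was uneven along the arm and thinned out toward the chromosome centre. For this the arm was divided into 3 sections of equal length. The outer section of the arm held 261 whole-series peaks, the middle section 237 and the inner section 108, which are 43.1%, 39.1% and 17.8% of the peaks. Covered bases were 8.24% of the outer section, 8.87% of the middle section and 2.85% of the inner section, by whole-series peaks. In the lists of the replicates the covered share was 9.16 ± 0.447% in the outer, 9.91 ± 0.11% in the middle and 3.18 ± 0.177% in the inner section (SD, n = 2). The inner section, which starts at position 4649785, was therefore the sparse one, and the outer and middle sections were alike within 1 percentage point in covered bases. In the replicate lists the inner section held 11.8 ± 0.304 peaks per Mb (SD, n = 2). The centre of V was similar, at 11.1 ± 0.71 peaks per Mb on 3.44% of its bases (SD, n = 2). The higher density of the arm over the centre thus lay in the outer and middle sections. Median scores of the whole-series peaks hardly differed between the parts, at 5.98, 6 and 5.67 from the outer to the inner section. In the replicate lists the medians went opposite ways. In the same order they were 348.73, 324.61 and 290.85 in replicate 1, and 312.87, 401.36 and 504.46 in replicate 2.

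The 5 most covered of 70 bins of 100 kb held 32.0% of the covered bases in the whole-series list, on 7.17% of the length. Replicate 1 had 33.6% of its covered bases in these 5 bins, and replicate 2 had 30.5%. The most covered bin, from 4.5 to 4.6 Mb, was 38.1% covered by whole-series peaks, against 42.3% in replicate 1 and 40.2% in replicate 2. Next came the bin from 2.6 to 2.7 Mb, with 35.7% in the whole-series list, 42.96% in replicate 1 and 43.8% in replicate 2. The bin from 0.9 to 1 Mb had 28.4%, 31.3% and 32.5% in the same order of lists. All 3 bins lie far apart, so the most covered stretches of the arm form separate spots and no single block.

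The other 2 of these bins were covered less. The bin from 3.5 to 3.6 Mb was 26.6% covered in the whole-series list, 34.1% in replicate 1 and 27.5% in replicate 2. This gap between replicates, 6.57 percentage points, was the widest of the 70 bins, against a median gap of 0.53 percentage points. It holds a replicate 1 peak of 4953 bp from 3589327 to 3594279, with a score of 785.28, that no replicate 2 peak overlapped and that contains 7 whole-series peaks. The bin from 1.8 to 1.9 Mb was 19.7% covered in the whole-series list, 19.1% in replicate 1 and 17.6% in replicate 2. Of its 30 whole-series peaks, 18 overlapped a peak of neither replicate.

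**Figure D2:**
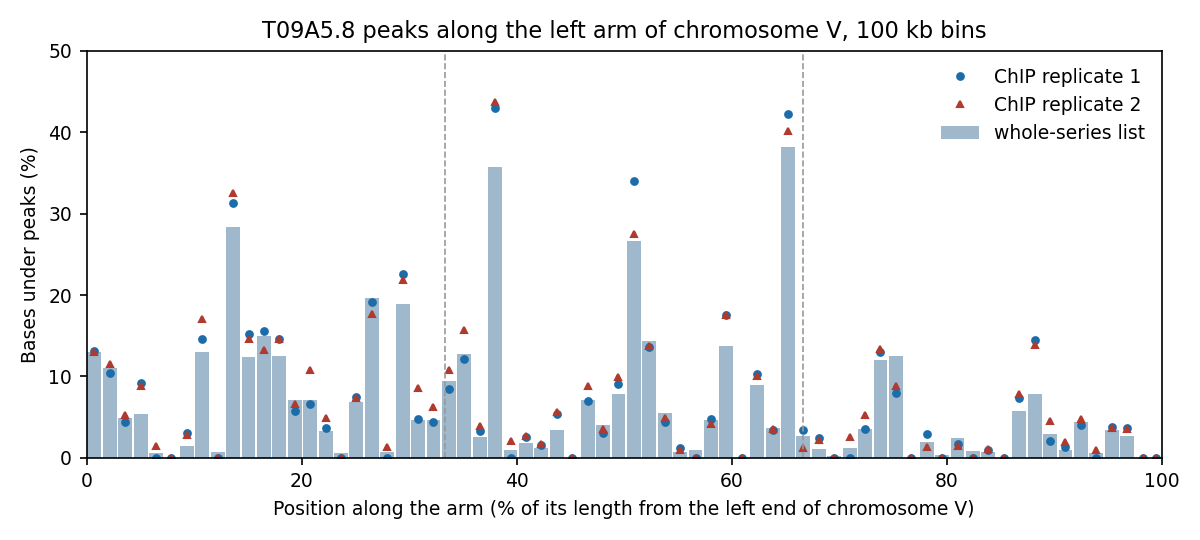
Percentage of bases under peaks in 70 bins of 100 kb, plotted by position along the left arm of V as a percentage of its length from the chromosome end, with whole-series peaks as bars and the ChIP replicates as points. Dashed lines part the arm into its 3 sections. The replicates and the whole-series list are high in the same spots, and the 5 most covered bins all lie in the outer and middle sections.

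Some stretches of the arm held no peak of any list. No peak of any list fell in 7 of the 70 bins, while 18 bins were empty in replicate 1 and 13 in replicate 2. On the arm, 100% of replicate 1 peaks and 98.3% of replicate 2 peaks overlap a whole-series peak. Stretches picked for lacking whole-series peaks are thus nearly bound to lack replicate peaks, and are no separate sign of agreement. The longest run between 2 neighbouring whole-series peaks of the arm spans 193.5 kb, from 5825847 to 6019329, in the inner section. The next longest such run spans 180.2 kb, from 470869 to 651077, and a further one spans 139.4 kb, from 4809830 to 4949263. In these 3 runs neither replicate had a peak with its midpoint inside, and the replicate peaks that reach into a run lie over the whole-series peak at its edge. The last peak inside the arm ends at 6794204, with a score of 2.8, and the next whole-series peak starts at 7114168, beyond the limit of the arm, with a score of 5.66. The limit thus falls in a gap of 320.0 kb, of which 180.5 kb lie inside the arm, and cuts no peak. On the inner side of that gap stand a peak of score 6.81 from 6793119 to 6793630 and the peak of score 2.8. On the far side stand the peak of score 5.66 and one of score 39.61 from 7114645 to 7115355.

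The whole-series peaks of the arm were narrow. Their median width was 337.5 bp, with quartiles of 206 and 734 bp, against a median of 395 bp over all chromosomes. It was the lowest median among the 12 arms, but close to the left arm of II, at 341.5 bp. The right arms of X and IV followed at 350 and 352 bp. In the replicate lists the arm was not the narrowest. Its median there was 1860.5 bp in replicate 1 and 1742.5 bp in replicate 2, against 1766 and 1683 bp on the right arm of IV. Of the 606 peaks, 274 or 45.2% were under 300 bp, against 39% of all whole-series peaks. At the other end, 110 or 18.2% reached 1 kb, against 22.3% of the list, and 12 or 1.98% reached 5 kb, against 2.59%. A single peak reached 10 kb, or 0.165%, against 0.54%. The 110 peaks of 1 kb or more held 62.1% of the bases under whole-series peaks on the arm.

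Scores of the whole-series peaks of the arm ran from 1.36 to 82.26, with a median of 5.93 against 6.72 over all chromosomes. The score is the authors' own, its scale is not stated, and it is used here to rank peaks within a list. In the replicate lists, median scores on the arm were 321.6 in replicate 1 and 387.2 in replicate 2, against 381.3 and 448.7 over all chromosomes. Many replicate peaks share the score 3100, a value carried by 17 of 162 arm peaks in replicate 1 (10.5%, against 12.2% of that list) and by 27 of 180 in replicate 2 (15.0%, against 14.5%).

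Replicates found the same sites on the arm for the most part. A replicate 2 peak overlapped 149 of the 162 replicate 1 peaks, or 92.0% (95% Wilson interval 86.8 to 95.3%), against 89% over all chromosomes. A replicate 1 peak overlapped 147 of the 180 replicate 2 peaks, or 81.7% (75.4 to 86.6%), against 85.3%. Both intervals hold the value of the whole list. They stand for counting error alone, because peaks next to each other are not independent. Peaks of 1 replicate alone were 13 in replicate 1 and 33 in replicate 2. Their median score was 84.98 in replicate 1, against 368.4 for shared peaks, and 66.3 in replicate 2, against 559.98.

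Edges differed little at shared sites with a single peak in each replicate. Sites where one replicate split what the other joined are left out of this comparison. In 134 pairs on the arm, a peak of each replicate met that single partner. The start positions of a pair differed by a median of 64 bp and the end positions by 73 bp, against 84 and 91 bp over 2615 such pairs on all chromosomes. Across the 134 pairs, the scores had a Spearman's rho of 0.903 and the widths one of 0.953, as a description over peaks that are not independent.

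Whole-series peaks found in both replicates made up the larger share of the arm's peaks and most of their bases. A peak of both replicates overlapped 314 of 606, or 51.8% (95% Wilson interval 47.8 to 55.8%), against 53.8% of all whole-series peaks, which is near the share of the whole list. Exactly one replicate had a peak at 89, or 14.7% (12.1 to 17.7%), against 19.2%, which lies above the interval. Neither had one at 203, or 33.5% (29.9 to 37.3%), against 27% of the list, and that value lies below the interval. These intervals cover counting error only and are too narrow for neighbouring peaks that are not independent. A list value outside one is therefore no test of a difference. Of the 89, replicate 2 alone had 59, which is 9.74% of the arm's peaks, against 10.7% of the list. Replicate 1 alone had 30, or 4.95%, against 8.47%. The 314 peaks hold 81.1% of the bases under whole-series peaks on the arm, against 72.4% over all chromosomes. The 203 peaks hold 11.7% of the bases, against 16.2%.

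The median score was 9.06 for peaks in both replicates, 6 for those in exactly one and 4.35 for those in neither. Median widths were 673.5, 321 and 225 bp in the same order. Over all chromosomes the same order held, with median scores of 10.2, 5.57 and 4.55 and median widths of 692, 315 and 230 bp. Ranked by score into 4 groups of nearly equal number, the arm's peaks were in both replicates in 25.7% of the lowest group, 39.1% of the second, 55.6% of the third and 86.8% of the highest. Over all chromosomes, peaks in the same score ranges gave 28.3%, 34.2%, 56.4% and 84.5%. For this share the arm and the list were thus within 5 percentage points of each other in each score range. The share in neither replicate was further apart at low scores, with 59.9% on the arm against 49.1% over all chromosomes in the lowest group and 47.0% against 39.0% in the second.

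**Figure D3:**
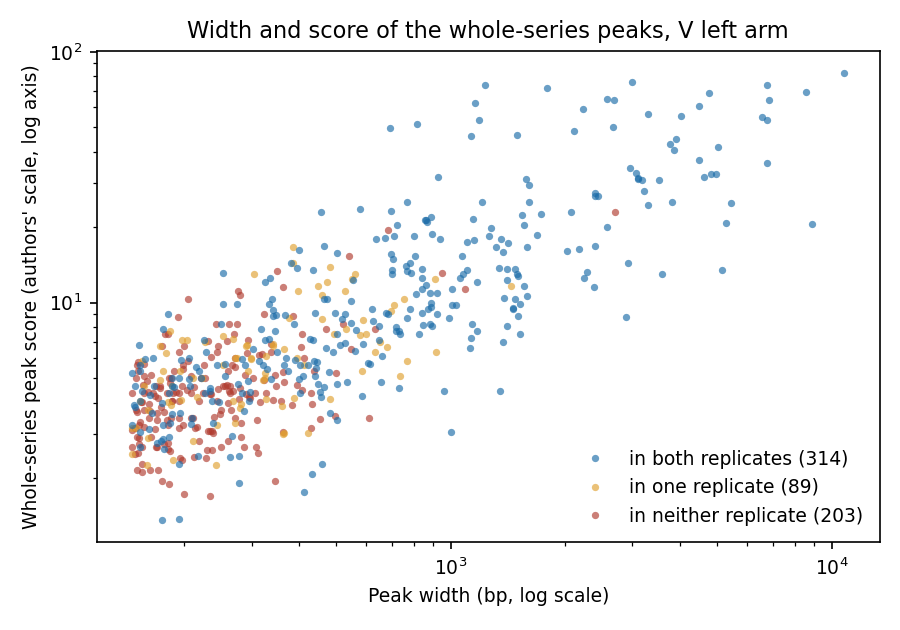
Width (x axis, bp, log scale) and score (y axis, log axis) of the 606 whole-series peaks of the V left arm, coloured by overlap with both replicates (314), one (89) or neither (203). Peaks in neither replicate crowd at low width and score, where peaks in both also occur.

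Wide peaks of the arm nearly all overlapped a peak of both replicates. A wide peak meets a replicate peak more easily at the overlap of 1 bp used here. How the replicates enter the whole-series list is not stated, so such overlap is no independent replication. Of the 110 whole-series peaks of 1 kb or more, 107 were in both replicates, or 97.3% (95% Wilson interval 92.3 to 99.1%), 2 were in neither and 1 was in a single replicate. On the right arm of V, 420 of 594 such peaks were in both, or 70.7% (66.9 to 74.2%), and over all chromosomes 2700 of 3134, or 86.2% (84.9 to 87.3%). All 12 peaks of 5 kb or more on the left arm were in both replicates (75.8 to 100%), against 38 of 87 on the right arm, or 43.7% (33.7 to 54.1%). The centre of V, with 48 of 50 peaks of 1 kb or more in both, and the right arm of IV, with 76 of 81, gave 96% and 93.8%. These intervals cover counting error only, and no test across samples applies, since each value uses both replicates at once. At under 300 bp the left arm gave 75 of 274 in both replicates, or 27.4%, against 28.9% over all chromosomes.

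**Figure D4:**
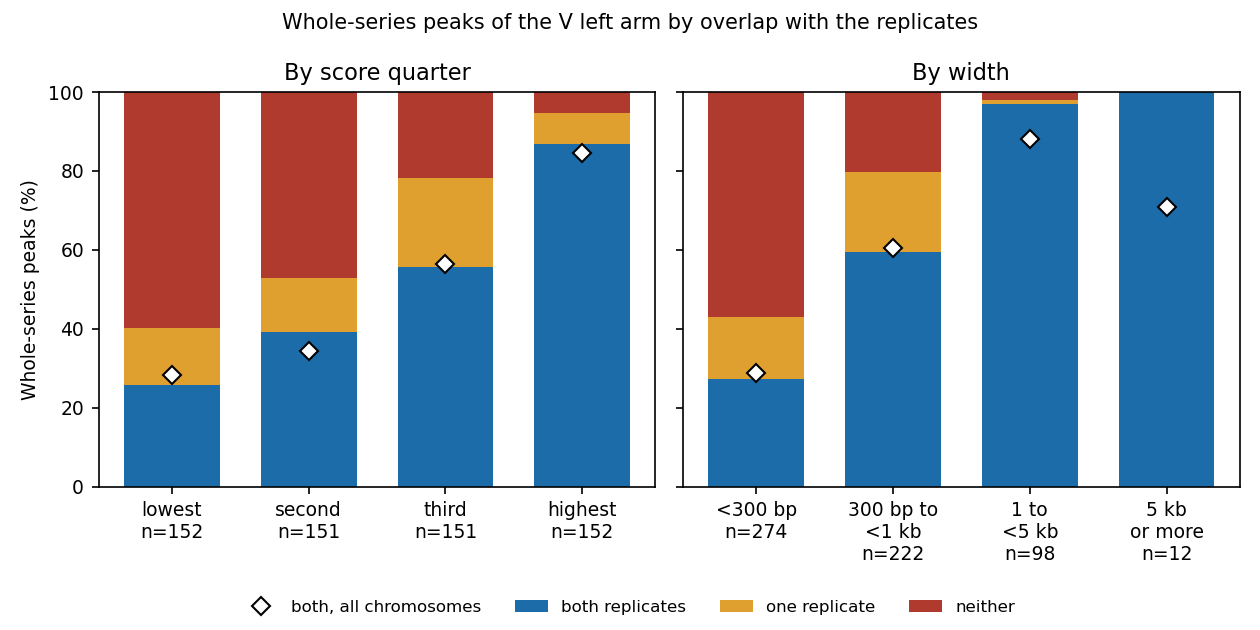
Percentage of the whole-series peaks of the V left arm found in both replicates, in one or in neither, by score group (left) and by width (right), with diamonds for the share in both over all chromosomes. The share in both climbs to 86.8% in the highest score group and to 100% at 5 kb or more, where all chromosomes give 70.9%.

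The 10 highest-scoring whole-series peaks of the arm found in both replicates lie in 8 separate replicate peaks. Scores ran from 64.18 to 82.26 and widths from 1227 to 10791 bp. The outer section of the arm holds 6 of them, the middle section 3 and the inner section 1. The replicate scores do not rank most of them, as 8 of the 10 have the shared score 3100 in each replicate.

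The highest score, 82.26, belongs to the peak from 970038 to 980828, which at 10791 bp is also the widest of the arm. It ranks 80 among the 14075 peaks of the whole list. With the peak from 982237 to 984802, of score 64.83, it lies under a single broad peak in each list. That peak runs from 969795 to 985458 in replicate 1, and replicate 2 has it at 969748 to 985674.

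A second site of the outer section holds the peak from 1149133 to 1152120, of score 75.9, and the peak from 1152228 to 1154907, of score 64.41. Replicate 1 has a single peak there from 1148789 to 1157973, and replicate 2 one from 1148785 to 1156382. The outer section also has the peak from 1883236 to 1891791, of score 69.3, and the peak from 2053740 to 2060606, of score 64.18. Each of these lies within 1 peak of either replicate with the score 3100.

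In the middle section stand the peaks from 2948837 to 2950063, of score 73.72, from 3434418 to 3441181, of score 73.65, and from 2665409 to 2670180, of score 68.25. The first of them is the narrowest of the 10, at 1227 bp, and carried a score of 1407.85 in replicate 1 and 3100 in replicate 2. In the inner section the peak from 5278154 to 5279944, of score 71.6, had the lowest replicate scores of the 10, with 304.71 in replicate 1 and 1197.33 in replicate 2. It was the one among the 10 without that score in either replicate.

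Of the 5 widest whole-series peaks of the arm, 3 are among the 10 above. The others have lower scores for their width. The peak from 4586094 to 4594979 is 8886 bp wide with a score of 20.57, and its replicate peaks score 1830.81 in replicate 1 and 1679.02 in replicate 2. The peak from 2487940 to 2494713 is 6774 bp wide with a score of 36.03, and its replicate peaks score 2567.55 and 3100.

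Peaks of the whole-series list often stand in short rows on the arm. When peaks at most 500 bp apart are joined, the 606 peaks form 336 domains, of which 202 hold a single peak. The other 134 domains hold 404 peaks, or 66.7% of the arm's peaks, against 75.8% of peaks in such rows over all chromosomes. Domains of 10 kb or more numbered 5 of 336, or 1.49%, against 265 of 6350, or 4.17%. None reached 20 kb on the left arm of V, and 64 did over all chromosomes.

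The longest domain holds 5 peaks over 15.4 kb, from 970038 to 985463, around the highest-scoring peak. The second, from 4520718 to 4535884, holds 7 peaks over 15.2 kb, with a top score of 32.59. The next longest domains, of 13.1 and 12.8 kb, run from 4586094 to 4599165 and from 3683577 to 3696394. All 22 domains of 5 kb or more were covered to at least 58.8% in replicate 1 and 66.4% in replicate 2, and the median was 100% in each. No wide domain of the arm was therefore missing from the replicate lists.

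Replicate peaks often spanned more than 1 whole-series peak, but not every row lay under a single one. Replicate 2 had separate peaks, from 4585931 to 4597361 and from 4597467 to 4599710, over the domain from 4586094 to 4599165. The domain from 5218450 to 5220494, with 6 peaks, had 0% of its bases covered in each replicate. A replicate 1 peak on the arm overlapped a median of 2 whole-series peaks, and at most 10, and 73 of the 162 overlapped a single one. All 162 overlapped at least 1, or 100%, against 99.7% of that list, and 177 of 180 did in replicate 2, or 98.3%, against 99.5%. The 3 replicate 2 peaks with no whole-series peak lie at 1255849 to 1257323, 2146155 to 2147209 and 2171704 to 2172753, with scores of 261.44, 53.2 and 82.31, and replicate 1 had no peak at any of them. By bases, whole-series peaks shared 384.8 kb with replicate 1 and 392.8 kb with replicate 2, which is 82.9% and 84.6% of the bases under whole-series peaks on the arm. On the right arm of V these shares were 65.7% and 62.4%, in the centre of V 80.4% and 84.8%, and on the right arm of IV 79.4% and 80.3%, so the centre of V and the right arm of IV were close to the left arm of V.

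The widest peak of replicate 1 on the arm is not the one with the highest score. It spans 16242 bp from 4519889 to 4536130 with a score of 152.23, and replicate 2 has a peak of 14763 bp from 4521466 to 4536228 with a score of 185.08. Both scores are below the median of the arm in their own list, at 321.6 and 387.2. The peak of the highest-scoring site, 15664 bp wide in replicate 1 and 15927 bp in replicate 2, carries 3100 in both. The next widest peak is 13845 bp in replicate 1, from 4586035 to 4599879, and 13709 bp in replicate 2, from 3682920 to 3696628.

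Whole-series peaks without a replicate peak were few among the high scores. All of the 50 highest-scoring peaks of the arm were in both replicates. In the highest score group of the arm 5.26% were in neither, against 8.1% over all chromosomes in that score range. The highest score among peaks in neither replicate was 23.04, for a peak of 2693 bp from 5283193 to 5285885. It lies close to the inner site at 5278154, which scores 71.6 in the whole-series list. The nearest replicate peaks are 2890 bp away in replicate 1 and 2775 bp away in replicate 2. The next, from 1104545 to 1105227, had a score of 19.46, and the nearest peaks of the replicates were 40354 and 40264 bp away. Then came the peaks from 1833744 to 1834283 (15.32), from 138258 to 138606 (13.41) and from 266204 to 267153 (13.15). Of the 203 peaks in neither replicate, 31 lay within 500 bp of a replicate peak and 73 lay over 10 kb from any. These counts and that of the 50 highest-scoring peaks were not made over all chromosomes. They are therefore not read as a trait of this arm. Replicate peaks also lay further apart here, with a median gap of 12010 bp in replicate 1, against 4155 bp over all chromosomes. In replicate 2 these gaps were 10472 and 3935 bp.

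Among peaks found in a single replicate, 4 of the 5 highest-scoring came from replicate 2. They lie at 1904693 to 1905078, with a score of 16.63, 6298488 to 6298872 (14.4), 204500 to 204981 (13.93) and 2710294 to 2710597 (13.04). The one from replicate 1 lies at 1221364 to 1221925, with a score of 12.98. The missing replicate peak was near at hand in 2 cases, as the nearest peak of replicate 1 was 458 bp from the peak at 6298488 and 195 bp from the one at 204500.

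**Figure D5:**
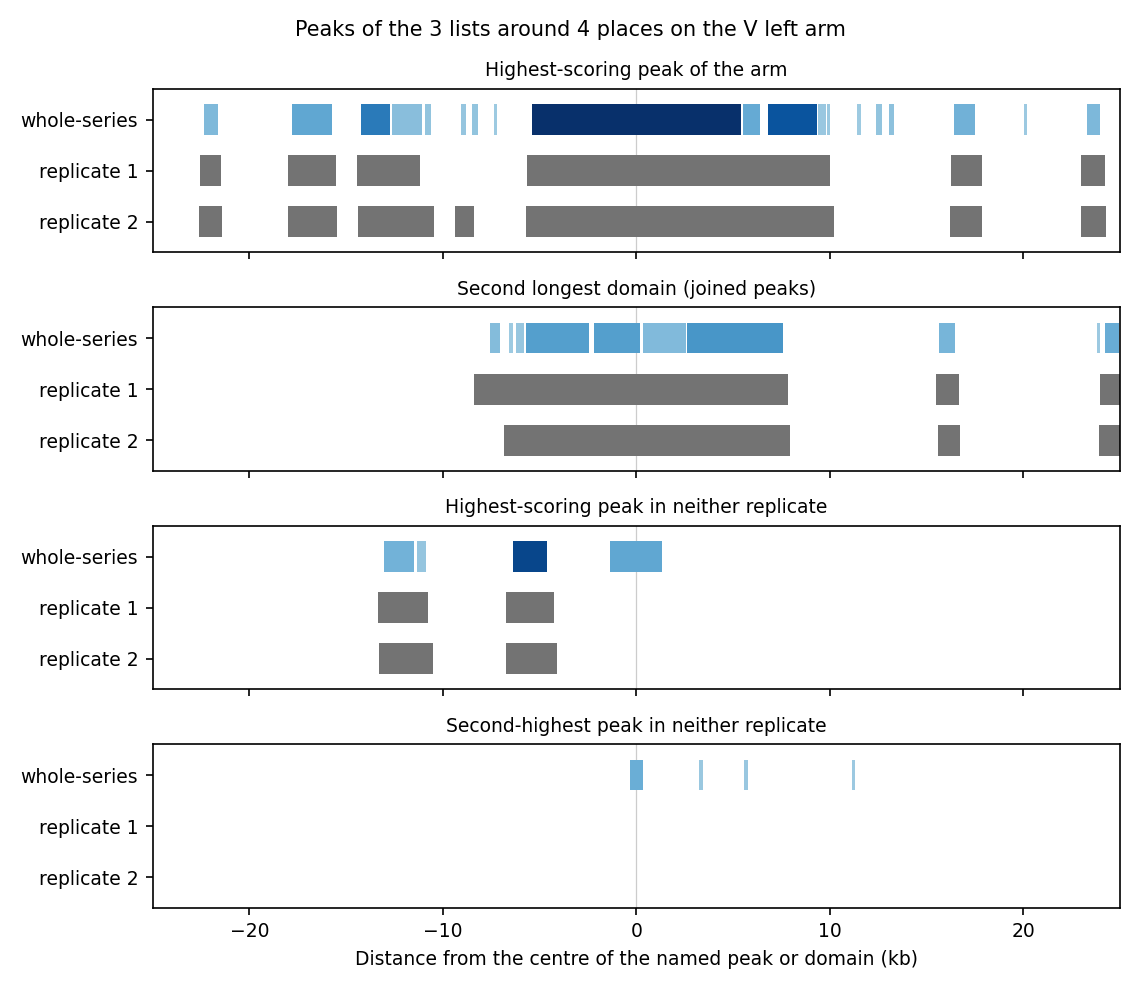
Whole-series peaks (blue, darker for a higher score) and replicate peaks (grey) around 4 places of the V left arm, by distance in kb from the centre of the named peak or domain. The first 2 places have 1 broad peak in each replicate over a row of whole-series peaks, and the 2 places below are centred on whole-series peaks, of scores 23.04 and 19.46, with no replicate peak over them.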

How the data were processed

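ChIP-seq of T09A5.8 in *fem-2(b245)* adults was read from 3 deposited peak lists, 1 for each of the 2 ChIP replicates and 1 for the whole series. BWA and the build ce10 are named in the submitters' processing notes, and positions are on WS220, per the file headers. The source column of the deposited files names MACS for the replicates and MACS v2 for the whole series. The authors deposited 1 score for each peak, with no scale given. For the control, the thresholds and the way replicates were combined, a statement is not given in the sources used here. The score scales of the replicate and whole-series lists differ, so they were never compared. Read depth is unknown.

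From these lists, peaks were assigned to the arm by midpoint and called overlapping at 1 bp or more. Chromosome lengths are the largest peak end in any list, and arms and centres are 3 parts of equal length. Covered bases were clipped to the region. Shares have 95% Wilson intervals, for counting error only. Each log2 ratio was tested by flipping the signs of the 2 replicate values (exact permutation, two-sided). Named peaks are the 10 highest-scoring in both replicates, the 5 widest, the 5 highest-scoring in neither and in one replicate, those at the arm limit, the 5 most covered bins, the 3 longest gaps and the 3 widest replicate peaks. Other places named (the replicate 1 peak in the bin from 3.5 to 3.6 Mb, the 4 longest domains, the replicate 2 peaks with no whole-series peak) were chosen after their values were seen. The arm, the comparisons and the alternatives were chosen with earlier results of these data known. The comparison of wide peaks and that of equal score ranges were added after seeing the data. The functions were tested on simulated data and gave back the set values, with a tolerance allowed for density, covered bases and the log2 ratio. The gene table at hand, of assembly WBcel235, was used only for the symbol *cec-3* of T09A5.8. What lies under the peaks, by gene or sequence, was left out for want of a WS220 genome. The software was matplotlib 3.10.9, scipy 1.17.1, pandas 2.3.3 and numpy 2.4.6 under Python 3.11.15.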

Additional observations from a re-analysis of the deposited data

How the results depend on the processing

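The arm stayed sparser than the right arm of V and denser than its centre under every alternative run (arm limit at 0.25 of the chromosome, the better-scoring 50% of each list, covered bases, whole-series list, either replicate left out). With either replicate left out the log2 ratio over the right arm was -1.60 to -1.51 and over the centre 1.13 to 1.15. The log2 ratio over the right arm of IV, -0.084 by peaks, turned to 0.086 with the arm limit at 0.25 of the chromosome, to 0.21 with covered bases and to 0.11 in the whole-series list, and the cause was not tested. The share of whole-series peaks in both replicates, 51.8%, was 56.4% with peaks widened by 200 bp and 41.4% in the better-scoring 50% of each list, which shortens the replicate lists too. With a single replicate left it was 56.8 to 61.6%, since only that list has to be met. The share in neither was 29.4%, 39.6% and 38.4 to 43.2% in the same order, and that in exactly one was 19.03% in the better-scoring 50%. Of the better-scoring replicate 2 peaks, 100% met a whole-series peak. With the limit at 0.25 the replicates had 29.2 peaks per Mb on 8.96% of bases. In the better-scoring 50% they had 11.3 peaks per Mb on 5.12%, and the whole-series list 38.4 peaks per Mb, as fewer peaks are counted. Peaks per Mb were 23.2 to 25.8 and covered bases 7.24 to 7.59% with either replicate left out. The median score of peaks in neither replicate was 4.35 to 4.49, and the median width of those in both 528 to 588 bp, with one left out. Domains numbered 511 with gaps of up to 100 bp and 157 in the replicate lists, and those of 5 kb or more numbered 40 with gaps of up to 2000 bp, against 336 and 22. No paired analysis was possible because input DNA, whose replicate numbers match those of the ChIP, enters with no peak list. Genes, repeats and sequence under the peaks were not run for want of WS220 annotation. What read depth limits is unknown here.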

Other observations

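Overlap with both replicates varied along the arm. The share of whole-series peaks with it was 49.4% of 261 in the outer section (95% Wilson interval 43.4 to 55.5%), 59.9% of 237 in the middle section (53.6 to 65.9%) and 39.8% of 108 in the inner section (31.1 to 49.2%). The shares in neither were 35.6%, 28.7% and 38.9% in the same order. Median widths were 333, 367 and 274.5 bp. These differences were not tested.

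The replicate peak that holds the most whole-series peaks lies in the outer section, at 790641 to 798891 in replicate 1, while replicate 2 places it at 790628 to 798833. It holds 10 whole-series peaks, the highest of which scores 10.3. Its own score was 354.93 in replicate 1 and 1359.1 in replicate 2. In replicate 2, a peak of the outer section from 764886 to 772779 holds 8 whole-series peaks, with a score of 1568.36. A replicate 2 peak of the inner section, from 6295461 to 6299297, also holds 8, with a score of 627.03. In 6 bins of 100 kb, the whole-series list alone had peaks, 13 in all.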
